A study of Mus musculus with 4 samples.

Results

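Predicted gene models of the mouse with symbols between Gm36000 and Gm49999 are described here where their labelled RNA was abundant. Members were chosen by symbol and by their measured mean level, not by their change: of 55401 genes in the table, 8131 carried such a symbol, and 329 of these had a mean of 10 CPM or more over all 4 libraries (CPM, counts scaled to a library total of 1000000). A Gm number is given to a gene model that is known from annotation and has no functional name, so no role is stated for single members below. The RNA was newly made, 4-thiouridine (4sU) labelled RNA of 129/Ola embryonic stem cells, biotinylated and caught on streptavidin. SNRNP70, known as U1-70K, was fused in all cells to a degron that auxin triggers (SNRNP70AID), and the groups differed in the time with the auxin IAA: 0 h (2 libraries, named WT in the genotype label) or 5 h (2 libraries, labelled as SNRNP70 degraded). The sources do not say whether the degron line is 1 clone, nor how long the cells were labelled.

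U1 snRNP pairs with the 5′ splice site at the start of an intron and is the first part of the spliceosome to bind. It is also known to keep RNA polymerase II transcripts from being cut and polyadenylated at cryptic sites early in a gene, and to act on many long non-coding RNAs. 4sU capture enriches for RNA made during labelling, so introns, antisense RNA and unstable transcripts, which are scarce in total RNA, weigh more in such libraries.

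The totals ran from 7174772 to 17752887 counts. Markers of embryonic stem cells were present, 10 of 10, with summed levels of 4428 and 4263 CPM at 0 h and 3829 and 3605 CPM at 5 h. The single markers did not move together. Scaled to library totals, Sox2, Klf4 and Utf1 were higher in both 5 h libraries, and Tfcp2l1, Nanog, Tdh, Zfp42 and Dppa5a were lower in both. Esrrb and Pou5f1 overlapped between the groups on that scale. Of 8 markers of feeder fibroblasts 4 had a count, with Col3a1, Postn, Dcn and Lum at 0 in all libraries and a summed level of 12.0 to 13.5 CPM. Markers of primitive endoderm, neuroectoderm, mesoderm and 2-cell-like cells summed to at most 21.3 CPM in any library. In bulk samples, fewer cells of a type and less RNA per cell cannot be told apart. The RNA of Snrnp70 itself was at 249 and 243 CPM at 0 h and at 451 and 475 CPM at 5 h, which does not check the labels because the degron acts on protein. These Snrnp70 values are on edgeR's trimmed-mean scale (TMM), unlike the single markers and their sums, which are scaled to library totals. The TMM factors, by which library totals are multiplied, were 1.097 and 1.098 at 0 h and 0.927 and 0.896 at 5 h. On the TMM scale 5 h values thus stand higher beside 0 h values. The smaller falls of markers given above, that of the stem cell sums included, may not hold on it. Nothing in the labels says that the libraries came from separate cultures, so the p-values may measure only technical spread.

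The members were a small and uneven set. They were 4.05% of the rows with such symbols, of which 5088 had no count in any library and 888 had a mean of 1 to 10 CPM. Their mean level, the value that chose them, had a median of 19.1 CPM and reached 1391 CPM. There were 13 members at 100 CPM or more, 33 at 50 to 100, 109 at 20 to 50 and 174 at 10 to 20. Just above the minimum lay Gm37296 (10.08 CPM), Gm42843 (10.09) and Gm47258 (10.09), and just below it Gm44829 (9.94), Gm37310 (9.92) and Gm49590 (9.87), so the minimum cuts through a dense range of levels. In both group means 241 members reached 10 CPM, 48 did so only at 0 h and 40 only at 5 h. No member had a count of 0 in any library, the lowest being 13, and all 329 passed the filter on low counts. Of the Ensembl identifiers, 313 stood at version 1, that is, unrevised models, and 16 at a later version.

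Most of these models could not be placed on the genome here. Of the 329, 18 matched a gene of the RefSeq table of GRCm38, the assembly to which mm10 corresponds, by symbol and 1 by synonym, in all 5.78%. RefSeq classed 12 of the 19 as long non-coding RNA (lncRNA), 5 as protein coding and 2 as pseudogenes, so the set is not made of non-coding models alone. Whether the models are spliced was not analysed here. Around 11 of the 19 a protein-coding gene was found: 8 lay wholly inside its span, 2 overlapped it in part and 1 lay within 5 kb of it.

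The RefSeq start windows of 4 placed members are shown, those with the highest and the lowest fold change among members past the threshold that had a single start window at hand. Gm41556, Gm40309, Gm43707, Gm40040 and Gm36501 also passed but had no window at hand, so their starts could not be shown. Each window of 300 bases runs from 250 bases before to 50 bases after the start, on the gene's strand, and was taken from RefSeq (GRCm38.p6). Capitals mark matches, on either strand, to the TATA box TATAAA, to the GC box GGGCGG, to the CCAAT box, to the poly(A) signal AATAAA or to GGTAAG, which resembles a strong 5′ splice site.
Gm36445, chr13:65241265-65241564, plus strand: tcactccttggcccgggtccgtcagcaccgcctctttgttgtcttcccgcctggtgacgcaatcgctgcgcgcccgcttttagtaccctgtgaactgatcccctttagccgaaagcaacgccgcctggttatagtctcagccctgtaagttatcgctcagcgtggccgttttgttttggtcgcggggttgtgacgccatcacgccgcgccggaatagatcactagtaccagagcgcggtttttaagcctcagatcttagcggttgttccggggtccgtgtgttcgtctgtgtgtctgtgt
Gm43560, chr3:144534849-144535148, minus strand: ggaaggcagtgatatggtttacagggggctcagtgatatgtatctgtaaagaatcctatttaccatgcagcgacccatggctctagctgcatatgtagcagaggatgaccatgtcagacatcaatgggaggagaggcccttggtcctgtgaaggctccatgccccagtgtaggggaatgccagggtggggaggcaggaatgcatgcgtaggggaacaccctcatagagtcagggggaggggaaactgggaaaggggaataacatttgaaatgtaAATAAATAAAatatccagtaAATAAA
Gm36816, chr6:67008938-67009237, minus strand: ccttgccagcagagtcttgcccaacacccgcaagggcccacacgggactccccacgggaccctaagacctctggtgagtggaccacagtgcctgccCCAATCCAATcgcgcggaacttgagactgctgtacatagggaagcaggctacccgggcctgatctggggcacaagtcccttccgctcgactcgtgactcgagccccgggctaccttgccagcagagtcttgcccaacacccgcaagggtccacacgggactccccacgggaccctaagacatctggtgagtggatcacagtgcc
Gm46332, chr12:4569524-4569823, minus strand: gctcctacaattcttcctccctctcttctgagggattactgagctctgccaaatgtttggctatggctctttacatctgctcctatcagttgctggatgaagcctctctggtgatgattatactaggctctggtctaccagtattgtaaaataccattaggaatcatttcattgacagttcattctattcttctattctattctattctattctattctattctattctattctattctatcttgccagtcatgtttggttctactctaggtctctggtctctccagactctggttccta

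These windows were unlike each other. The start of Gm36445 was rich in CpG, with an observed over expected ratio of 1.14 and 57.3% G or C, whereas Gm46332 had a ratio of 0 and 39.7% G or C. Gm43560 had 3 matches to AATAAA just after its start, of which a pair overlap, and the window of Gm36816 had 2 matches to CCAAT and an exact repeat of 36 bases. Over the 15 windows of the 11 members in the promoter table, CCAAT was found in 8 (37.4% of all 32851 windows held it), GGGCGG in 5 (35.7%), AATAAA in 4 (19.6%), TATAAA in 2 (13.6%) and GGTAAG in 1 (9.67%). Of the 15 windows 4 belong to Gm44867, and overlapping windows of that gene hold the same TATAAA site in both cases and count a GGGCGG site again. The median CpG ratio of the 15 windows was 0.271, against 0.384 over all windows. The 4 windows of Gm44867 all lay under 0.271, so this gene alone weighs on the median. Gm36445, Gm36816, Gm37494, Gm38431, Gm38699 and Gm46430 lay above 0.384 in every window. Gm39041, Gm41609, Gm43560, Gm44867 and Gm46332 lay below it in every window. The members' windows are thus not shown to be poorer in CpG gene by gene. Such matches describe the letters only.

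Labelled RNA of the members was mostly higher after 5 h of auxin. Together they took 1.05% and 1.07% of the counts in the 0 h libraries and 1.32% and 1.36% in the 5 h libraries, and 0.849%, 0.873%, 1.05% and 1.12% without the 2 most abundant members. All rows of the symbol range, whatever their level, took 1.41% and 1.45% at 0 h and 1.65% and 1.72% at 5 h. In edgeR, with quasi-likelihood p-values adjusted over 17344 tested genes (Benjamini-Hochberg), 172 of 329 members rose (52.3%) and 50 fell (15.2%), and 107 did not pass. Over all tested genes 43.2% passed, 22% as higher and 21.2% as lower. The median log2 fold change, 5 h minus 0 h, was 0.60 for the members (quartiles -0.04 and 1.13) and -0.02 for all tested genes. Changes of 2-fold or more past the threshold were seen in 101 members that rose and 30 that fell, against 7.6% and 10.2% of all tested genes. The typical change was 2.13-fold in those that rose and 2.28-fold in those that fell (medians).

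The direction depended on the scale. Mitochondrially encoded RNA, which mitochondria transcribe with their own polymerase, took 4.41% and 4.34% of counts at 0 h and 6.03% and 7.17% at 5 h. With library totals in place of TMM (edgeR's trimmed-mean scaling), 147 members rose and 65 fell, with a median of 0.33 beside -0.28 for all tested genes. With mitochondrial scaling 35 rose and 112 fell, with a median of -0.26 beside -0.86. All 35 were among the 172, and all 50 that fell also fell with both other scalings. Both scalings moved the values of the genes downward as a whole, so a fall could hardly be lost under them. This overlap is therefore no further support. Every change below is given on the TMM scale.

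**Figure D1:**
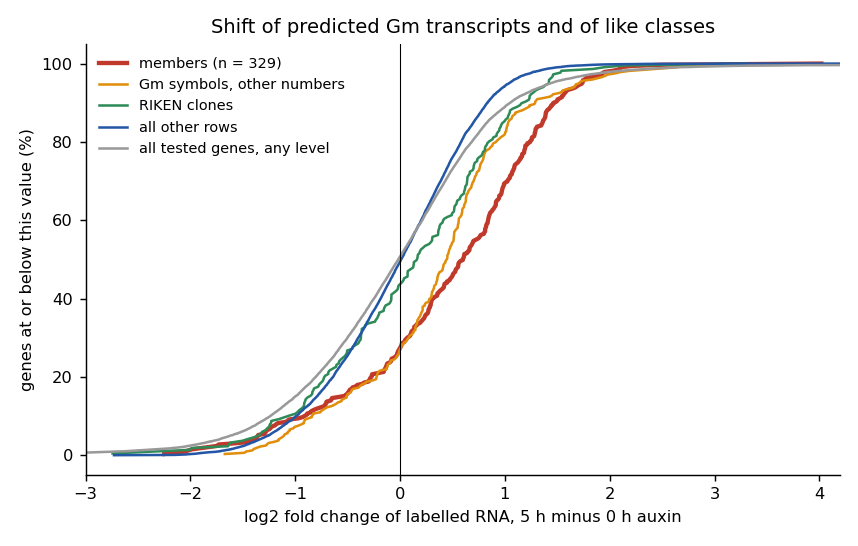
Cumulative share of genes (vertical axis, %) at or below each log2 fold change of labelled RNA, 5 h minus 0 h (horizontal axis, drawn from -3 to 4.2), for the 329 members, for 3 classes with a mean of 10 CPM or more and for all 17344 tested genes. The members' curve lies to the right of the others at its middle, with a median of 0.60, against 0.45 for other Gm symbols, 0.16 for RIKEN clones and 0.01 for all other rows.

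Classes of transcript with like naming were set beside the members at the same minimum level. Of 319 tested Gm symbols with other numbers, 133 rose (41.7%) and 44 fell (13.8%), with a median of 0.45. Of 217 RIKEN clone transcripts, named after a cDNA collection, 84 rose (38.7%) and 61 fell (28.1%), with a median of 0.16. Of the 8820 other rows, 2719 rose (30.8%) and 2592 fell (29.4%), with a median of 0.01. Rows of the members' own symbol range that passed the filter but lay under 10 CPM had a median of 0.05, and 147 of 1093 rose and 93 fell, with replicates farther apart than those of the members (median difference between the 0 h libraries of 0.44 against 0.18 log2 units). These are counts in the same fit, and no test of the difference between classes was made.

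The level used to choose the members holds the 5 h values, and this moved the result. With a mean of 10 CPM or more in the 0 h libraries alone, 321 rows entered, 135 rose, 68 fell and the median was 0.30. Under that rule 42.1% of the predicted Gm rows rose and 21.2% fell, beside 28.8% and 31.2% of 9112 other rows with a median of -0.05. With 10 CPM or more in each group, 135 of 241 rose and 14 fell, beside 32.6% and 25.9% of 8029 other rows. The excess of higher over lower calls was thus seen under each of these rules on the TMM scale, at different sizes. The rules were not run with the other scalings. Asking for 10 CPM in each group leaves out rows that fell under it at 5 h, which favours rises, so that rule is no further check.

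Members with a higher mean over the 4 libraries rose more often, but that mean holds the 5 h values, so that a fall lowers the level. At 50 CPM or more 38 of 46 members rose and 1, Gm46430, fell. At 20 to 50 CPM 67 of 109 rose and 13 fell, and at 10 to 20 CPM 67 of 174 rose and 36 fell. The medians were 0.95, 0.77 and 0.34 in that order. Other rows showed a like order, with 43.6%, 21.0% and 13.9% higher and 22.9%, 35.5% and 36.3% lower. When the level was the 0 h mean, the shares of predicted Gm rows that rose were 54.8% of 31, 48.8% of 121 and 34.9% of 169, with medians of 0.42, 0.42 and 0.28, so the slope was smaller with the 5 h values left out of the level. The shares that fell were then 16.1%, 24.8% and 19.5%, with no steady order, in place of 2.17%, 11.9% and 20.7% by the mean of all 4 libraries. Of other rows, by the 0 h mean, 37.9%, 21.1% and 16.2% rose and 28.2%, 36.05% and 31.6% fell. A slope in the share that rose was thus seen in other rows too. Gm36936, at 58.1 and 54.8 CPM at 0 h and chosen after its values were seen, fell 2.59-fold.

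**Figure D2:**
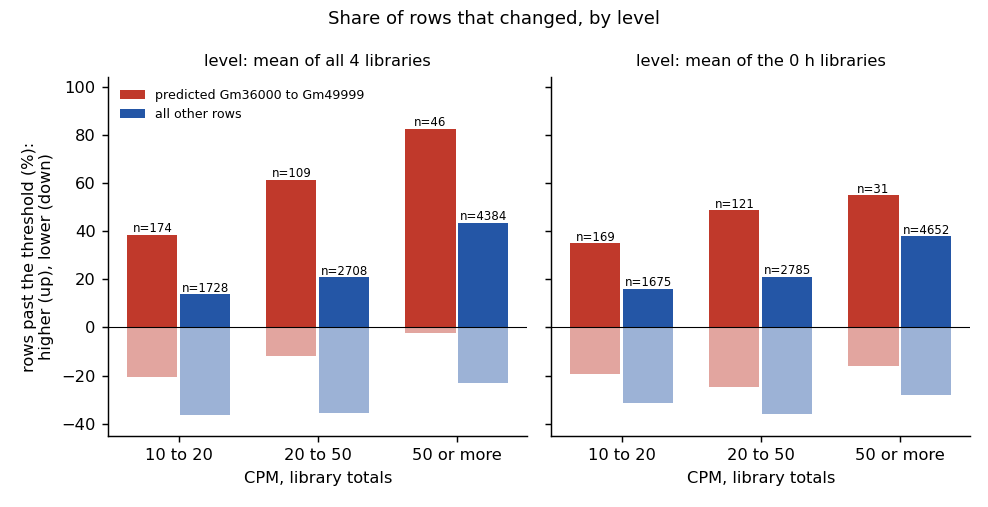
Share of rows past the threshold (vertical axis, %; bars upward for higher, pale bars downward for lower at 5 h) in 3 classes of level, for predicted Gm rows and for all other rows, with the level taken as the mean of all 4 libraries (left) or of the 0 h libraries (right). On the left the share of predicted Gm rows that rose goes from 38.5% to 82.6%, and on the right from 34.9% to 54.8%.

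The counts were much alike across the numbering of the models, with no test of the difference. Of 109 members from Gm36000 to Gm41999, 55 rose and 20 fell, with a median of 0.57, and of 220 members from Gm42000 to Gm49999, 117 rose and 30 fell, with a median of 0.61. The 313 members at version 1 had a median of 0.61, and the 16 revised models a median of 0.37, with 8 that rose and 3 that fell. The 19 members found in RefSeq had a median of 0.57 and the other 310 of 0.60. The single largest changes lay among the unplaced members.

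Gm38308 had the steepest rise. It was at 1.29 and 1.65 CPM in the 0 h libraries and at 24.6 and 21.5 CPM at 5 h (TMM-normalised CPM, as for all values per library below). It is a member only through its 5 h level, and its groups lie far apart, 16.2-fold in the fit (log2 4.02 ± 0.28, SE; edgeR, adjusted p = 8.33e-06). Gm45205, among the more abundant members, went from 33.6 and 30.0 CPM to 194 and 167 CPM, with both 5 h libraries far above both 0 h libraries (log2 2.50 ± 0.12; adjusted p = 4.38e-06). Gm37115 was at 19.8 and 20.4 CPM at 0 h and at 82.0 and 89.8 CPM at 5 h, a 4.28-fold rise with close replicates.

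Gm38190 and Gm38359 had nearly the same values in every library. Gm38190 was at 40.7, 38.2, 151 and 190 CPM and Gm38359 at 39.8, 37.4, 148 and 181 CPM, in the order 0 h replicates 1 and 2 and 5 h replicates 1 and 2. Both had their highest level in 5 h replicate 2, and they rose 4.31-fold and 4.25-fold. Neither was placed here, so whether they share reads was not tested, and they may not be separate results. The other 3 of the 8 strongest risers were Gm44552 (4.62-fold), Gm45399 (4.09-fold) and Gm45762 (3.87-fold). Their lowest 5 h value was 28.7, 29.4 and 109 CPM, in that order, above their highest 0 h values of 8.02, 9.67 and 34.0 CPM. Gm44552 and Gm45399, like Gm38308, are members only through their 5 h level, which favours a rise. The other 5 had 10 CPM or more at 0 h as well, and they passed with the same direction under all 13 other fits, mitochondrial scaling included. Those fits reuse the counts by which the 5 were picked. They show that the calls did not turn on scale or processing, and are no independent support.

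The 8 members that fell most did so by 3.32-fold to 4.75-fold. Gm38248 went from 34.8 and 31.9 CPM at 0 h to 6.15 and 8.11 CPM at 5 h, 4.75-fold lower (log2 -2.25 ± 0.20; edgeR, adjusted p = 2.97e-05). Gm37321 was at 24.3 and 19.5 CPM and then at 5.25 and 4.43 CPM (log2 -2.17 ± 0.24). Gm44822 fell from 25.3 and 31.9 CPM to 7.04 and 6.59 CPM, and Gm42979 from 29.5 and 31.9 CPM to 6.97 and 8.65 CPM. In each of these 4 the groups did not overlap. Gm42531 (4.06-fold lower), Gm37643 (3.72), Gm37978 (3.52) and Gm44434 (3.32) were the others, and their 5 h values lay between 4.42 and 8.98 CPM. All 8 were under 10 CPM in the 5 h mean and so are members only through their 0 h level, which favours a fall; their calls under the 13 other fits are therefore no further support.

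**Figure D3:**
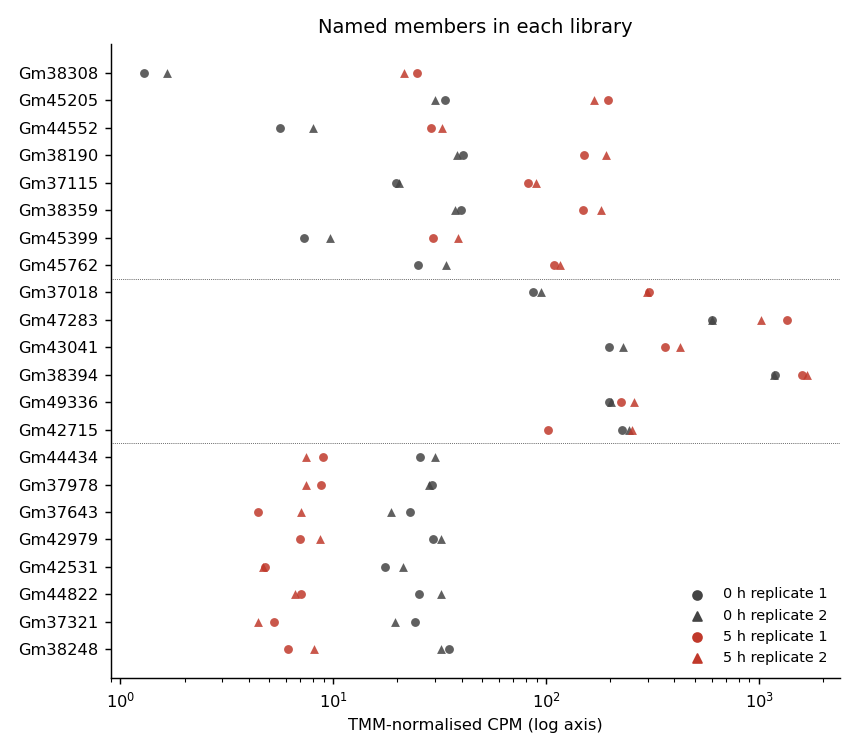
TMM-normalised CPM (horizontal axis, log scale) of 22 members in each of the 4 libraries: the 8 with the highest fold change (top), the 6 most abundant (middle) and the 8 with the lowest fold change (bottom). Grey points are 0 h and red points 5 h libraries; the groups are apart in all but Gm42715, whose 5 h libraries lie at 102 and 254 CPM.

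The 6 most abundant members behaved unlike each other. Gm38394 was at 1189 and 1170 CPM at 0 h and at 1597 and 1683 CPM at 5 h, a small rise with close replicates (log2 0.48 ± 0.08; edgeR, adjusted p = 0.000835). With mitochondrial scaling its log2 fold change was -0.37. Gm47283 went from 599 and 603 CPM to 1352 and 1020 CPM (log2 0.98 ± 0.12). Its 5 h libraries differed, and without 5 h replicate 1 the log2 value was 0.75, without replicate 2 1.18.

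Gm37018 rose most of the 6, from 86.4 and 94.3 CPM to 305 and 298 CPM, or 3.35-fold, and still passed with mitochondrial scaling (log2 0.90). Gm43041 was at 198 and 229 CPM and then at 359 and 424 CPM, a 1.84-fold rise. With mitochondrial scaling neither Gm43041 (log2 0.02) nor Gm47283 (0.15) passed. Gm49336 was at 198 and 202 CPM at 0 h and at 224 and 257 CPM at 5 h, with adjusted p = 0.0455 (edgeR). It no longer passed with the stricter filter, with library totals, and without each of 3 of the 4 libraries in turn, and its log2 fold change of 0.27 became -0.59 with mitochondrial scaling. Gm42715 did not pass: it was at 227 and 245 CPM at 0 h and at 102 and 254 CPM at 5 h, so that its groups overlap. Its log2 fold change of -0.42 ± 0.59 was 0.10 without 5 h replicate 1 and -1.21, past the threshold, without 5 h replicate 2.

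**Figure D4:**
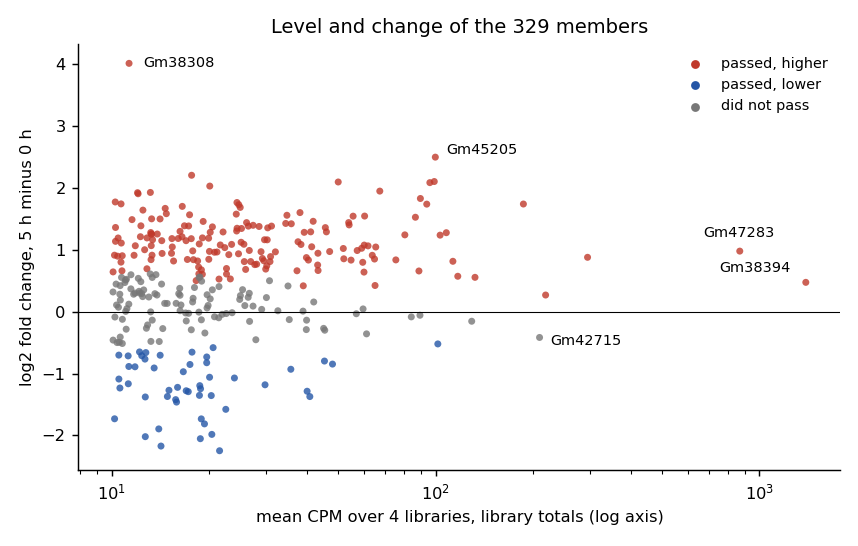
Log2 fold change, 5 h minus 0 h (vertical axis), against mean CPM over the 4 libraries scaled to library totals (horizontal axis, log scale) for each of the 329 members; red points passed as higher (172), blue as lower (50) and grey did not pass (107). Of the 46 members at 50 CPM or more 1 fell, beside 22.9% of other rows at that level. The horizontal axis holds the 5 h values, however, and by the 0 h mean 5 of 31 such rows fell, beside 28.2% of other rows.

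Replicates of the members agreed closely as a rule. The ratio of the higher to the lower replicate had a median of 1.13 at 0 h and 1.17 at 5 h. It was 2 or more in 1 member at 0 h (Gm49378) and in 5 at 5 h (Gm42715, Gm36995, Gm37983, Gm49378 and Gm49322, chosen after their values were seen), and none of these passed the threshold. The groups did not overlap in 270 of the 329 (82.1%), against 73.5% of all tested genes, and in each of the 222 members that passed. All tested genes include rows of low level. At the members' minimum level the groups did not overlap in 7289 of 8820 other rows, 179 of 217 RIKEN clones and 245 of 319 other Gm symbols. The members' share was thus near that of other rows and RIKEN clones. A further 15 members that did not pass had an unadjusted p under 0.05.

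Among the 19 placed members, 10 rose and 5 fell. Gm41556, an lncRNA gene on chromosome 17 from 29056348 to 29059553, was at 9.06 and 9.29 CPM at 0 h and at 28.0 and 26.3 CPM at 5 h, a log2 fold change of 1.57 ± 0.19. Gm36445, the lncRNA gene with the CpG-rich start shown above, rose from 18.9 and 19.98 CPM to 47.0 and 57.7 CPM. It spans 65241515 to 65250166 on chromosome 13. In both, each 5 h library lay far above each 0 h library.

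Placed members that fell included Gm40040, an lncRNA gene on chromosome 3 from 41474907 to 41484004. It was at 21.6 and 23.0 CPM and then at 10.2 and 5.62 CPM, with 5 h libraries that differed (log2 -1.46 ± 0.27; edgeR, adjusted p = 0.00135). Gm40040 is a member only through its 0 h level, which favours a fall. Gm46332, whose start is shown above, went from 23.3 and 24.6 CPM to 13.9 and 14.9 CPM. Gm46430, a protein-coding gene by RefSeq on chromosome 13, fell from 110 and 126 CPM to 78.2 and 85.5 CPM and was the only member with a mean of 50 CPM or more over the 4 libraries that fell. Of the other protein-coding members, Gm43707, Gm38699 and Gm37494 (named Gm33989 in RefSeq) rose and Gm45871 did not pass.

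A last comparison asked whether members moved with the gene they lie in. For each of 11 placed members the log2 ratio to its protein-coding neighbour was tested with limma, over 1131 such pairs of the whole table. None of the 11 passed at an adjusted p under 0.05, in either direction, and 5 had an unadjusted p under 0.05. The share of all pairs with such an unadjusted p was not worked out, so nothing is drawn from the 5. Over all pairs 1.15% passed as higher and 0.973% as lower. The smallest adjusted p among the 11 was 0.0541, and with a library left out the smallest was 0.129. Whether the counting used strand is not stated, and 10 of the 11 overlap their neighbour, so reads of the pair could not be told apart.

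The widest gap was at Gm36816 and Gng12, a G protein gamma subunit gene in whose span Gm36816 lies on the opposite strand (chromosome 6, 66984317 to 67008987). Gm36816 fell from 26.4 and 26.0 CPM to 12.1 and 13.1 CPM, and Gng12 rose from 5.71 and 3.05 CPM to 13.9 and 20.2 CPM. Their log2 ratio changed by -3.01 ± 0.43 (limma, adjusted p = 0.0541), and by -2.59 to -3.43 with any library left out. The 2 genes moved in opposite directions, each without overlap of the groups and each past edgeR's threshold on its own. Gm39041, on the same strand as the hydrolase gene Abhd2 that contains it (chromosome 7, 79298950 to 79302400), also went against its neighbour. It rose from 15.1 and 14.0 CPM to 25.2 and 27.5 CPM while Abhd2 fell from 154 and 147 CPM to 93.8 and 87.2 CPM, a change in the ratio of 1.58 ± 0.29 (limma, adjusted p = 0.0592).

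Hs2st1, which encodes a sulfotransferase of heparan sulfate, holds 2 members in its span, Gm43707 and Gm43560, which therefore share a neighbour. Gm43707 went from 15.6 and 17.1 CPM to 37.0 and 33.8 CPM and Gm43560 from 7.41 and 6.49 CPM to 15.7 and 14.6 CPM, while Hs2st1 was at 81.8 and 90.7 CPM and then at 99.5 and 103 CPM and did not pass. The ratio changed by 0.88 in both (SE 0.28 and 0.31). Gm43560 is a member only through its 5 h level, which favours a rise. Gm40309 rose by 1.29 ± 0.14 inside Ube2k, a ubiquitin-conjugating enzyme gene that rose by 0.48 ± 0.11. Gm44867 rose by 0.91 ± 0.23 inside Plekha7, an adherens junction gene at 0.13 ± 0.11. Over the 11 pairs the ratio was higher at 5 h in 8 and lower in 3, with a median change of 0.66, and none of them passed on adjustment. The like share and median over all pairs of the whole table were not worked out, and 2 of the 11 pairs share Hs2st1. These counts therefore describe the 11 pairs only.

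In 3 of the remaining 5 pairs member and neighbour had the same sign. Gm36501, a pseudogene of 567 bases inside the zinc finger gene Zfp808, changed by -1.17 ± 0.23 and Zfp808 by -0.83 ± 0.11. Gm38431 and Raver1, a gene for an RNA-binding partner of PTB, rose by 0.95 ± 0.19 and 0.35 ± 0.12, and Gm37494, 4015 bases from the zinc finger gene Zfp619, rose by 0.57 ± 0.10 with Zfp619 at 0.23 ± 0.14. Gm41609, at 61.3, 56.1, 71.3 and 49.5 CPM in the 4 libraries, lies opposite to Dlgap1, a synaptic scaffold gene at 2.04 CPM or less, and neither passed. Gm45470 (-0.34 ± 0.19) and Adrb3, a beta adrenergic receptor gene (0.38 ± 0.15), did not pass either.

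**Figure D5:**
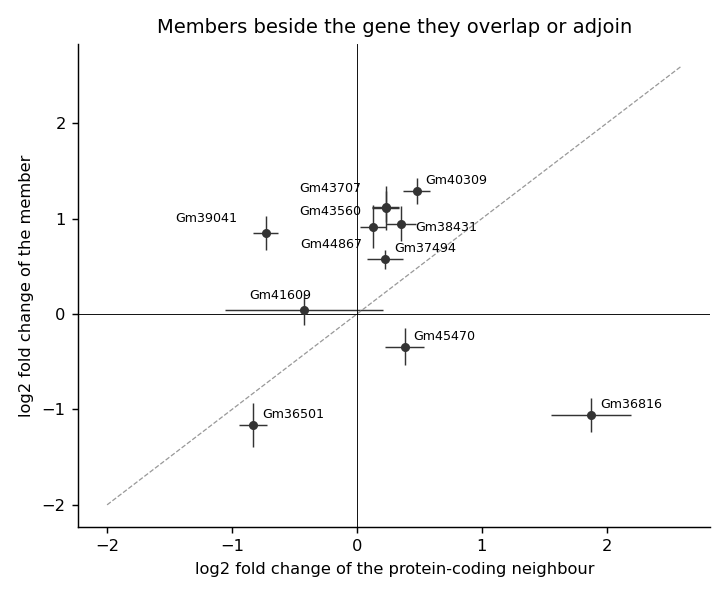
Log2 fold change, 5 h minus 0 h, of 11 placed members (vertical axis) against that of the protein-coding gene they overlap or adjoin (horizontal axis), with bars of 1 SE from edgeR; the dashed line marks equal change. Points lie above the line for 8 members, and Gm36816 lies farthest from it, at -1.06 with its neighbour at 1.88.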

How the data were processed

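The authors deposited a table of whole-number counts per gene, read here as estimated counts since the layout, per the file headers, matches a StringTie export. Values of 3 and 4 were each more frequent than 2 in all 4 libraries, so counts can overstate the fragments behind them. The submitters' processing notes name mm10, StringTie 2.2.1, HISAT2 2.2.1 and DESeq2 1.42.0, but neither annotation nor strandedness, which are not given in the sources used here.

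Counts were fitted for the whole table in edgeR 4.0.16 (filterByExpr, TMM, robust quasi-likelihood test of 5 h against 0 h). A gene passed at p under 0.05 after Benjamini-Hochberg adjustment. Ratios of neighbours were tested in limma 3.58.1 on log2 CPM with a prior count of 2. DESeq2 1.42.0 was an alternative. The edgeR script was tested on simulated data, where 100 changes of 2-fold (90% recovered) and 100 of 4-fold (100%) were set, with 12 false calls among 16667 genes. A floor of 3 counts is 0.169 to 0.418 CPM, covering counting error only. Members, lists and tests were chosen with earlier results of these data known. Named members are the top 8 in each direction by fold change, among those past the threshold without overlap of the groups, the 6 most abundant, 3 on each side of the minimum level, and those described with a RefSeq place or neighbour, of which all with a neighbour were named since none passed. The start windows, and the level classes by 0 h mean, were chosen after the data were seen.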

Additional observations from a re-analysis of the deposited data

How the results depend on the processing

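With DESeq2 size factors, no filter, the stricter filter of 50 counts, DESeq2, limma-voom, counts divided by 4 and any library left out, the counts of members that rose and fell stayed within 1.5 times. Without 1 library, 160 to 174 rose, 42 to 47 fell and the median log2 fold change was 0.56 to 0.67. Library totals moved the median to 0.33. Mitochondrial scaling gave 35 higher, 112 lower and a median of -0.26. Of the 172 that rose, 35 were called under all 13 other fits, and of the 50 that fell, 36. With a minimum of 5 CPM 76 of 539 fell, a share near the main 50 of 329; with 20 CPM 105 of 155 rose and 14 fell (median 0.84); with 10 CPM in each group 14 of 241 fell; with 10 CPM at 0 h the median was 0.30. Gm43041 and Gm47283 did not pass, and Gm38394 and Gm49336 were at -0.37 and -0.59 with mitochondrial scaling, and Gm42715 at 0.10 without 5 h replicate 1 and -1.21 without 5 h replicate 2. Ratios to neighbours gave 0 calls by limma with a prior count of 0.5, with library totals and with any library left out. With the replicate number as a block 171 rose and 48 fell (median 0.58); the numbers share no stated batch, and deviations of same-numbered libraries correlated at 0.0505. The alternative without Gm42418 was not run, nor were places by strand (head to head, downstream), since strand was known for few members.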
